A study of Mus musculus with 10 samples.

Results

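The cytosolic ribosomal protein genes encode the protein part of the ribosome, the particle that makes every cellular protein outside mitochondria. They were taken from the deposited table by name: protein-coding genes called Rpl or Rps followed by a number, with Rpsa, Rplp0, Rplp1 and Rplp2, and without the Rps6k kinases. This gave 82 genes of 54532, of which 50 belong to the large subunit and 32 to the small subunit. The measurements are bulk RNA sequencing of 10 livers, 5 from ASK1f/f and 5 from ASK1+hep mice. Both groups carried a murine ASK1 cDNA behind a lox-flanked stop in the ROSA26 locus on a C57BL/6J background. In ASK1+hep mice the Alb-Cre transgene, which is active in hepatocytes, removed that stop, whereas the ASK1f/f littermates kept it. From 6 weeks of age all mice ate a high-fat diet (HFD) for 7 weeks, and they were killed after a 5 h fast. The comparison asks which liver transcripts differ when hepatocytes overexpress ASK1 (gene Map3k5), a stress-activated kinase.

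A ribosome joins a large subunit, which forms peptide bonds, to a small subunit, which reads the mRNA. Each subunit needs most of its proteins in equal numbers. Most ribosomal protein mRNAs begin with a 5' terminal oligopyrimidine (TOP) tract, through which mTORC1 and LARP1 adjust their translation. Liver makes large amounts of secreted protein and expresses these genes strongly.

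Library totals ran from 13367742 to 16163378 reads on genes. Levels are given as FPKM, fragments per kilobase of gene scaled to library size, as deposited. The library size implied by these values was not the total above. It was from 0.890 times that total in ASK1+hep replicate 3 to 1.06 times in ASK1f/f replicate 1. In whole liver, fewer cells of a type and less RNA per cell cannot be told apart. Map3k5 was 4.71 to 6.88 FPKM in 4 of the ASK1f/f (control) livers and 7.68 to 16.4 FPKM in the ASK1+hep livers, but the library labelled ASK1f/f replicate 5 held 19.8 FPKM, the highest of the 10 (log2 fold change 0.60 ± 0.32 SE, limma p = 0.0819, exact permutation p = 0.159). The ASK1+hep replicate 3 library stood apart: 10.9% of its reads were mitochondrial, against 4.19% to 6.74% in the other 9. The main results are therefore also given without it.

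Together the members took 1.37% to 1.43% of all reads in control livers and 1.20% to 2.05% in ASK1+hep livers. Of the 82 members, 78 passed the low-value filter (at least 10 reads in at least 5 livers), namely 46 of the large and all 32 of the small subunit. Mean levels of these 78 had a median of 84.9 FPKM for the large and 112 FPKM for the small subunit. The most abundant large subunit mRNA was that of the stalk protein Rplp1 (914 FPKM), followed by Rpl36 (467 FPKM) and Rplp0 (273 FPKM). In the small subunit Rps15 (330.1 FPKM), Rps3a1 (310.3 FPKM) and Rps2 (301 FPKM) came first. These ranks depend on the deposited gene lengths, which for 78 of the 82 members equal the joined exons of every annotated isoform. For 40 of the 82 that length was more than 2 times the principal transcript, up to 6.79 times for Rpl35a (3526 against 519 bases), so the FPKM of such a gene is low for its read number. Comparisons of 1 gene between livers use the same length throughout.

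The pyrimidine tract is the sequence feature that this family is known for, and its presence near annotated starts was therefore checked. RefSeq start sites (GRCm38.p6) were at hand for 62 members with 74 entries. A run of at least 6 C or T bases that opens with C within 10 bases of the start, on the sense strand only, was present in 30 of the 62 genes (17 large, 13 small). A run whose first C lay further upstream was not counted, even where it reached the start, as for Rpl7a. The same rule was used for all entries. Counted by entries it was in 40.5% of the members' 74 and in 17.8% of all 32851. The windows below run from 10 bases before the start to 20 bases from it, with the tract in capitals. They show some of the members whose values are described later. Rpl35a has further listed starts without such a run, and only the start with a tract is shown.
Rpl38 (chr11:114668570-114668599, plus strand): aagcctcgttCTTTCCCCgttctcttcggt
Rpl35a (chr16:33056472-33056501, plus strand): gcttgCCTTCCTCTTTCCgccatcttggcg
Rps27 (chr3:90213629-90213658, minus strand): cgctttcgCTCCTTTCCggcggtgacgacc
Rps6 (chr4:86857348-86857377, minus strand): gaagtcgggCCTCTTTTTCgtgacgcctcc
Rplp2 (chr7:141447641-141447670, plus strand): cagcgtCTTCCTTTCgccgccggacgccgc
For Rps28 and Rpl9, as for Rplp0, Rps15, Rpl5 and Rpsa among others, no such run stood in the window around the listed start. This says nothing about starts used in these livers. The windows of Rps28 and Rpl9 follow.
Rps28 (chr17:33824543-33824572, minus strand): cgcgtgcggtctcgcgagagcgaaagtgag
Rpl9 (chr5:65391412-65391441, minus strand): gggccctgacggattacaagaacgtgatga
In the 300 bases around the start, the ETS family core CCGGAAG was found on either strand in 36.5% of members' entries and in 8.86% of all entries. The Sp1 core GGGCGG was in 59.5% and 35.7%, the YY1 core AAGATGGC in 9.46% and 2.75%, and the TATA motif TATAAA in 8.11% and 13.6%, respectively. These are matches of letters and not binding sites.

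Total ribosomal protein mRNA was not shown to differ between the genotypes, while its SD between livers was 9.77 times larger in the ASK1+hep group, 5.46 times without ASK1+hep replicate 3 and 5.35 times when taken as a share of each library's summed FPKM. The summed FPKM of all members in replicates 1 to 5 was 8208, 8929.9, 8881, 8225 and 8624 in control livers. In ASK1+hep livers it was 7433, 10816, 15724, 10664 and 7503. Replicates 2, 3 and 4 of ASK1+hep thus lay above every control liver and replicates 1 and 5 below every control liver. Means were 8573 ± 346 and 10428 ± 3383 FPKM (SD, n = 5 each), with an exact two-sided permutation p of 0.262. Without ASK1+hep replicate 3 the ASK1+hep mean was 9104 ± 1890.4 FPKM (SD, n = 4), 1.06 times that of the controls (exact permutation p = 0.524).

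The proportion of the large to the small subunit varied less than the sums. Large subunit genes summed to 5137 ± 217 FPKM in control and 6215 ± 2096 FPKM in ASK1+hep livers (SD, n = 5 each; exact permutation p = 0.294). Small subunit genes summed to 3436 ± 143 and 4213 ± 1289.8 FPKM (SD, n = 5 each; exact permutation p = 0.183). The ratio of large to small stayed between 1.42 and 1.54 in all 10 livers. Its mean was 1.495 ± 0.0340 in control and 1.47 ± 0.0477 in ASK1+hep livers (SD, n = 5 each), a difference within the spread between livers (exact permutation p = 0.294). This depended on ASK1+hep replicate 3, whose ratio was 1.54. Without it the ASK1+hep mean was 1.45 ± 0.0233 (SD, n = 4), lower than in controls (exact permutation p = 0.0476), and replicates 2, 4 and 5 (1.436, 1.455 and 1.423) lay below the lowest control (1.465). Such sums weigh abundant genes most, and Rplp1 alone averaged 867 FPKM in control livers. Gene by gene, the median log2 fold changes without ASK1+hep replicate 3 were 0.066 for the large and 0.054 for the small subunit. A shift in subunit balance was thus not shown.

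**Figure D1:**
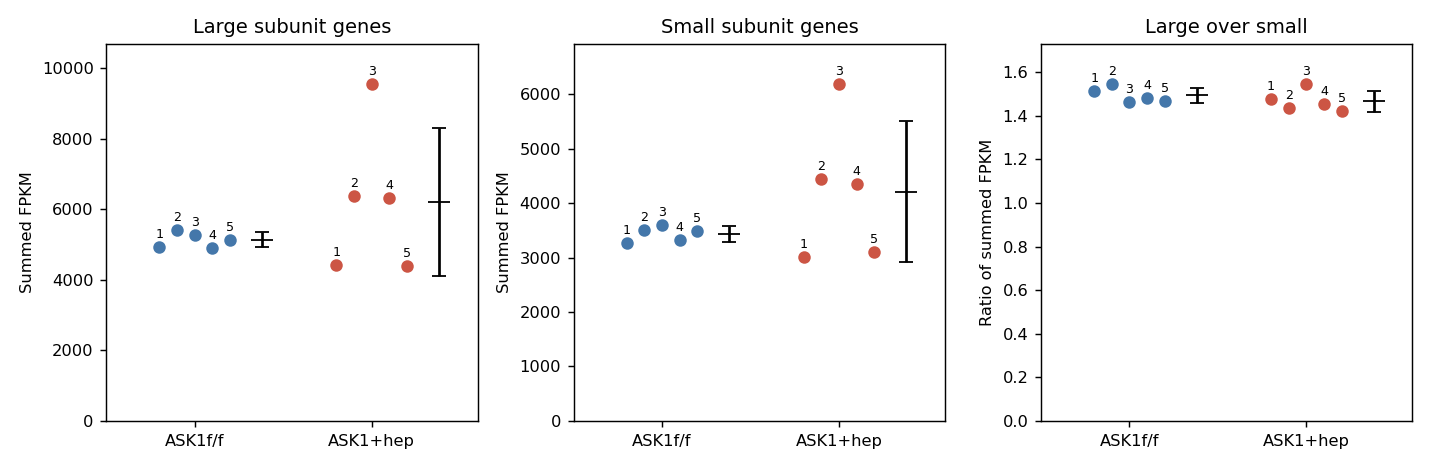
Summed FPKM of the large and small subunit genes and their ratio (y axes, from 0) in ASK1f/f and ASK1+hep livers (x axes). Points are livers with their replicate numbers and bars are mean and SD over 5 livers; the sums of ASK1+hep replicates 2, 3 and 4 lie above all ASK1f/f livers, while the ratio stays between 1.42 and 1.54.

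Gene by gene, limma on log2(FPKM + 1) with Benjamini-Hochberg adjustment called 0 of 78 members at an adjusted p of 0.05, and 0 of the 13261 genes tested (0.00%); the lowest adjusted p among members was 0.813. At an unadjusted p under 0.05, 6 of 78 members were higher and 1 was lower in ASK1+hep livers. Among all genes tested 3.05% were higher and 2.71% lower at that level, 5.77% in all. The median log2 fold change (ASK1+hep minus ASK1f/f) was 0.22 for the large and 0.20 for the small subunit, against -0.0065 for all genes. Higher means in ASK1+hep livers were found for 37 of 46 large and 28 of 32 small subunit genes, beside 48.1% of all genes tested. They were also found for 70 of 76 mitochondrial ribosomal protein, 63 of 71 respiratory chain and 31 of 37 proteasome genes. Of the 78 members, 0 had all 5 ASK1+hep livers on the same side of all 5 control livers, which 0.86% of all genes tested did. Without ASK1+hep replicate 3 the medians dropped to 0.066 and 0.054, whereas without ASK1+hep replicate 1 they were 0.31 and 0.31. In the fit without replicate 3, 1 member was higher (Rps27a) and 2 were lower (Rpl3 and Rpl9) at an unadjusted p under 0.05, with 2.35% of all genes higher and 2.19% lower. The number of members at an unadjusted p under 0.05, 7 with all livers, was 15, 1, 3, 4 and 17 without ASK1+hep replicates 1 to 5 in turn. Of all genes, 4.86% were higher and 3.98% lower without ASK1+hep replicate 1, and 7.25% higher and 5.74% lower without replicate 5. These shares were 2.19% and 2.22% without ASK1+hep replicate 2, and 2.57% and 2.47% without replicate 4. The number of members was 1, 2, 5, 2 and 4 without control replicates 1 to 5. In those fits 2.51%, 2.20%, 2.19%, 2.33% and 3.08% of all genes were higher, and 2.49%, 1.97%, 2.13%, 1.98% and 2.78% were lower. Scaling each library to the same summed FPKM moved the median of all genes to -0.16 and those of the large and small subunit to 0.020 and -0.0023, which lie 0.18 and 0.16 above that shift. On that scale 24 of 46 large and 16 of 32 small subunit genes had higher means, and 53 of 78 members kept their direction. At an unadjusted p under 0.05, 1 member was then higher and 8 were lower, beside 1.03% and 9.02% of all genes. Scaling by all reads on genes gave medians of 0.145 and 0.122 for the large and small subunit, against -0.0525 for all genes. Higher means were then found for 34 of 46 large and 24 of 32 small subunit genes. In that fit 5 members were higher and 2 lower at an unadjusted p under 0.05, beside 2.04% and 4.43% of all genes.

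In the small subunit, the 3 genes with the lowest p were Rps27a, Rps29 and Rps28. Rps27a, whose protein is made as a fusion with ubiquitin, measured 36.3, 42.5, 39.5, 48.4 and 38.8 FPKM in control replicates 1 to 5. In the ASK1+hep replicates it measured 48.1, 50.4, 108, 97.7 and 46.8 FPKM, so that replicates 3 and 4 stood well above the rest while replicates 1 and 5 lay below the highest control. The difference was 0.67 ± 0.24 (SE) on the log2 scale (limma p = 0.0169, exact permutation p = 0.0238), and the adjusted p was 0.813. Rps27a had an unadjusted limma p under 0.05 also when any 1 of the 10 livers was left out.

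Rps29, a small zinc-binding protein whose gene is mutated in some patients with Diamond-Blackfan anaemia, measured 112, 113, 139, 112 and 145 FPKM in control livers. In ASK1+hep livers it measured 105, 193, 326, 183 and 191 FPKM (log2 fold change 0.60 ± 0.24 SE, limma p = 0.0293, exact permutation p = 0.0635). Replicate 1 lay below all controls and the other 4 above them. Rps28, another gene of that anaemia, measured 28.6, 25.2, 32.2, 23.3 and 29.6 FPKM in control livers. The ASK1+hep values were 24.9, 56.1, 78.1, 35.9 and 32.8 FPKM (log2 fold change 0.59 ± 0.26 SE, limma p = 0.0434, exact permutation p = 0.0794). Here too replicates 2 to 5 lay above all controls, and replicate 1 lay inside their range. Without ASK1+hep replicate 3 the log2 fold changes were 0.40 for Rps29 and 0.37 for Rps28, and neither had an unadjusted limma p under 0.05.

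In the large subunit, Rpl38, whose loss in mice alters skeletal patterning, measured 76.0, 93.5, 99.7, 77.5 and 87.6 FPKM in control livers. In ASK1+hep livers it measured 67.9, 178, 268, 143 and 106 FPKM (log2 fold change 0.67 ± 0.29 SE, limma p = 0.0436, exact permutation p = 0.0952). Again replicate 1 lay below and the other 4 above all control livers. Rpl35a, also a Diamond-Blackfan anaemia gene, measured 24.6, 24.0, 30.8, 26.3 and 24.5 FPKM in control livers. The ASK1+hep values were 25.3, 42.6, 60.6, 39.6 and 26.5 FPKM (log2 fold change 0.50 ± 0.21 SE, limma p = 0.0366, exact permutation p = 0.0635). Replicates 2, 3 and 4 exceeded the control range and replicates 1 and 5 lay inside it. The log2 fold changes without ASK1+hep replicate 3 were 0.43 for Rpl38 and 0.32 for Rpl35a, and neither had an unadjusted limma p under 0.05.

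Rpl9, a core protein of the large subunit, went the other way, with 48.5, 48.5, 50.1, 50.1 and 51.8 FPKM in control livers. In ASK1+hep livers it measured 39.7, 37.3, 41.7, 53.1 and 38.7 FPKM (log2 fold change -0.25 ± 0.11 SE, limma p = 0.0420, exact permutation p = 0.0476). Replicate 4 lay above all controls and the other 4 ASK1+hep livers below them. X-linked Rpl36a, the partner of the paralog Rpl36al, measured 34.5 to 40.6 FPKM in control livers, and 35.6, 56.2, 85.6, 47.9 and 43.0 FPKM in the ASK1+hep group (log2 fold change 0.43 ± 0.19 SE, limma p = 0.0480, exact permutation p = 0.0556). Without ASK1+hep replicate 3 the log2 fold change of Rpl9 was -0.25, with an unadjusted limma p still under 0.05, and that of Rpl36a was 0.25, no longer under it. The limma p of Rpl9 was also under 0.05 without ASK1+hep replicate 4, but not when any other single liver was left out. The adjusted p of each of these genes was 0.813 with all livers.

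Members with further known roles did not pass an unadjusted p of 0.05. The stalk proteins, which recruit translation factors, had log2 fold changes of 0.030 ± 0.14 for Rplp0, 0.063 ± 0.24 for Rplp1 and 0.21 ± 0.17 for Rplp2 (SE). Rplp1 reached 1595 FPKM in ASK1+hep replicate 3 and was 613 FPKM in replicate 5, around control values of 819 to 939 FPKM. The values for Rplp0 and Rplp1 turned negative under scaling by all reads, scaling to equal summed FPKM and gene length correction. Rpl5 and Rpl11 form a complex with a small ribosomal RNA and can bind the p53 regulator Mdm2. Rpl5 measured 56.8 ± 3.61 and 51.9 ± 6.68 FPKM and Rpl11 79.8 ± 4.46 and 98.3 ± 31.4 FPKM in control and ASK1+hep livers (SD, n = 5 each). Rps6, the protein phosphorylated downstream of mTORC1, measured 182 ± 10.2 and 196 ± 36.2 FPKM, and Rpsa, also known as the laminin receptor precursor, 136 ± 10.0 and 179 ± 85.1 FPKM (SD, n = 5 each). Of these 7 genes Rpl11 had the lowest limma p (limma p = 0.223, exact permutation p = 0.262) and Rpl5 the lowest by permutation (exact permutation p = 0.175).

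Among the other most abundant members, Rpl36 measured 324 to 392 FPKM in control livers, and 322, 664, 1049, 506 and 324 FPKM in the ASK1+hep group (log2 fold change 0.52 ± 0.29 SE, limma p = 0.101, exact permutation p = 0.167). Rps15 measured 263 ± 18.6 and 398 ± 240.4 FPKM (SD, n = 5 each; limma p = 0.213, exact permutation p = 0.325). For both genes ASK1+hep replicate 3 was by far the highest liver. Rps3a1 was steadier, with 314 ± 15.9 and 307 ± 28.1 FPKM, and Rps2 measured 280.2 ± 17.9 and 321 ± 118 FPKM (SD, n = 5 each; exact permutation p = 0.579 and 0.635).

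The same livers were high or low for most of the family. ASK1+hep replicate 3 was the highest of the 10 livers for 65 of the 78 members, 38 large and 27 small. ASK1+hep replicate 1 was the lowest for 34 members and replicate 5 for 26. Averaged over members, the deviation from each gene's own mean was 0.63 on the log2 scale in ASK1+hep replicate 3, 0.23 in replicate 2 and 0.22 in replicate 4, but -0.30 in replicate 1 and -0.25 in replicate 5. ASK1f/f livers stayed between -0.17 and -0.042. The SD over livers of a typical member was 0.31 on the log2 scale (median) and dropped to 0.16 once the mean of the family in each liver was subtracted. After that subtraction the most stable members were Rps26 (SD 0.0389) and Rplp2 (SD 0.0529), the former chosen after its value was seen.

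**Figure D2:**
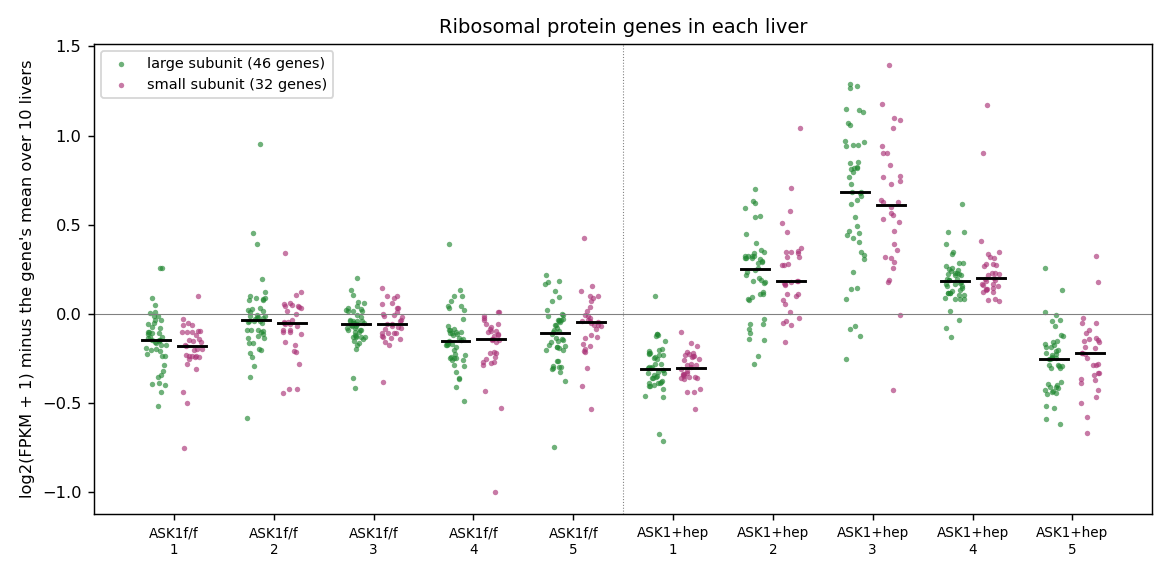
Each point is 1 ribosomal protein gene in 1 liver, as log2(FPKM + 1) minus that gene's mean over the 10 livers (y axis), by liver (x axis) and subunit (colour), with medians as black lines. Both subunits sit highest in ASK1+hep replicate 3 and lowest in ASK1+hep replicates 1 and 5, and ASK1f/f livers lie near 0.

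Across the 78 members the log2 fold change was lower for longer proteins (Spearman's rho = -0.55, Pearson's r = -0.58), in the large (rho = -0.56, 46 genes) as in the small subunit (rho = -0.52, 32 genes). These points share the same 10 libraries, and genes are not independent replicates. Without ASK1+hep replicate 3, rho was -0.59. The 26 members with the shortest proteins (25 to 132 residues) had a median log2 fold change of 0.26, the 26 of 133 to 188 residues 0.25, and the 26 longest (192 to 419 residues) 0.088. These medians were 0.12, 0.087 and -0.023 without ASK1+hep replicate 3. Of the 6 members higher at an unadjusted p under 0.05, 5 were among the 26 shortest. At the long end, Rpl3 (403 residues), which lies near the peptide-bond forming centre, measured 71.2 ± 4.69 and 62.6 ± 8.14 FPKM (SD, n = 5 each; log2 fold change -0.19 ± 0.11 SE, limma p = 0.116, exact permutation p = 0.0714). Its log2 fold change was -0.25 without ASK1+hep replicate 3, with an unadjusted limma p under 0.05.

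Fold changes also went with length outside the family. Of the other protein-coding genes tested, the 251 with a deposited gene length of at most 1000 bases had a median log2 fold change of 0.26, against 0.31 for the 12 members of that length. Over 1000 and up to 2000 bases the medians were 0.091 for 1281 other genes and 0.26 for 32 members. Over 2000 and up to 4000 bases they were 0.011 for 3687 other genes and 0.14 for 28 members. The other genes in these classes had medians of 0.11, 0.026 and -0.0022 without ASK1+hep replicate 3. In ASK1+hep replicate 3, other genes of at most 1000 bases deviated by 0.68 on the log2 scale and those over 4000 bases by -0.090. Removing a spline of gene length in each liver left medians of 0.16 and 0.16 for the large and small subunit. The part of gene length or of RNA quality in the members' differences was not tested beyond this.

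**Figure D3:**
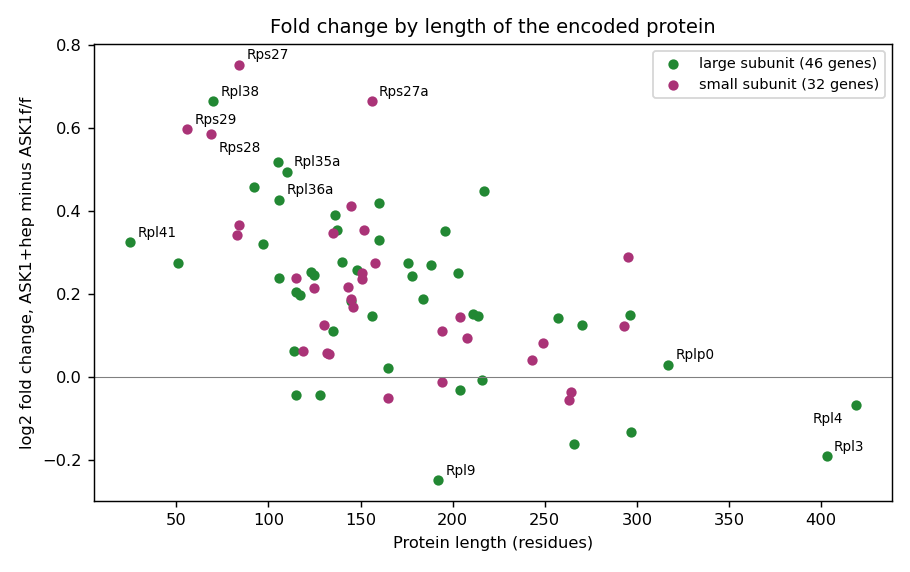
Log2 fold change (ASK1+hep minus ASK1f/f, y axis) against protein length in residues (x axis) for the 78 members tested, coloured by subunit. Short proteins such as Rps29 and Rpl38 lie highest and long ones such as Rpl3 near or below 0, with a Spearman's rho of -0.55.

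The member that varied most once the family's level was removed was Rps27 (SD 0.60 on the log2 scale, n = 10 livers), and the mouse genome holds a copy of its coding sequence. Rps27 (chr3:90212522-90213651, minus strand, coordinates as deposited) has an annotated copy, Rps27rt (chr9:114982366-114982739, minus strand), which has a single exon. The transcripts in the GENCODE M21 annotation (GRCm38) share a run of 341 of the 345 bases of the Rps27 transcript without a difference, and the 255 coding bases are the same. The functional paralog Rps27l, in contrast, differs from Rps27 at 61 of 255 coding bases (76.1% identity). The coding sequences of Rps27, which is also that of Rps27rt, and of Rps27l are shown with the bases that differ between them in capitals.
Rps27: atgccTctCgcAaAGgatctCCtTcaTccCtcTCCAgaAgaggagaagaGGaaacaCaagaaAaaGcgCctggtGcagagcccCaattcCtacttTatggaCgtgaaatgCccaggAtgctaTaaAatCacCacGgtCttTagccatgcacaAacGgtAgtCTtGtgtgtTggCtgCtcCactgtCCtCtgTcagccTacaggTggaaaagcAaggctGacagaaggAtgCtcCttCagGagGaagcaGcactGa
Rps27l: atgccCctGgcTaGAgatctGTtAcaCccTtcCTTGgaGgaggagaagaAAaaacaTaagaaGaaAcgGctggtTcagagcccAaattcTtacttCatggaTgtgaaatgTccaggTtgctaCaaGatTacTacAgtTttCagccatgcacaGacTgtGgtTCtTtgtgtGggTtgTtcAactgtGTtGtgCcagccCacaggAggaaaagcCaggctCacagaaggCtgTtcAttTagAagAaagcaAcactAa
Only 1.48% of the stretches of 75 bases in the Rps27 transcript were unique to the gene, compared with 88.0% for Rps27l.

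Reads on Rps27 numbered 610, 715, 863, 465 and 1293 in control replicates 1 to 5 and 887, 1673, 1052, 2087 and 663 in ASK1+hep replicates 1 to 5. Those on Rps27rt numbered 1331, 1315, 1086, 1417 and 613, and 835, 222, 1246, 249 and 1467, respectively. Rps27rt was lowest where Rps27 was high: Rps27 held 88.3% and 89.3% of the joint reads in ASK1+hep replicates 2 and 4, against 24.7% to 67.8% in the other 8 livers. The joint number ran from 1722 to 2336. At equal library size the coefficient of variation was 54.4% for Rps27 alone and 15.4% for Rps27 with its copies. Rps27 by itself had a log2 fold change of 0.75 ± 0.34 SE, limma p = 0.05001, exact permutation p = 0.119, and Rps27rt of -0.73 ± 0.51 SE, limma p = 0.173, exact permutation p = 0.278. For the combined reads the difference of log2 means was 0.20, and expression of Rps27 cannot be told apart from the division of reads between the loci. Rps27l measured 173 ± 4.42 and 233 ± 83.3 FPKM in control and ASK1+hep livers (SD, n = 5 each; log2 fold change 0.37 ± 0.20 SE, limma p = 0.0941, exact permutation p = 0.127).

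**Figure D4:**
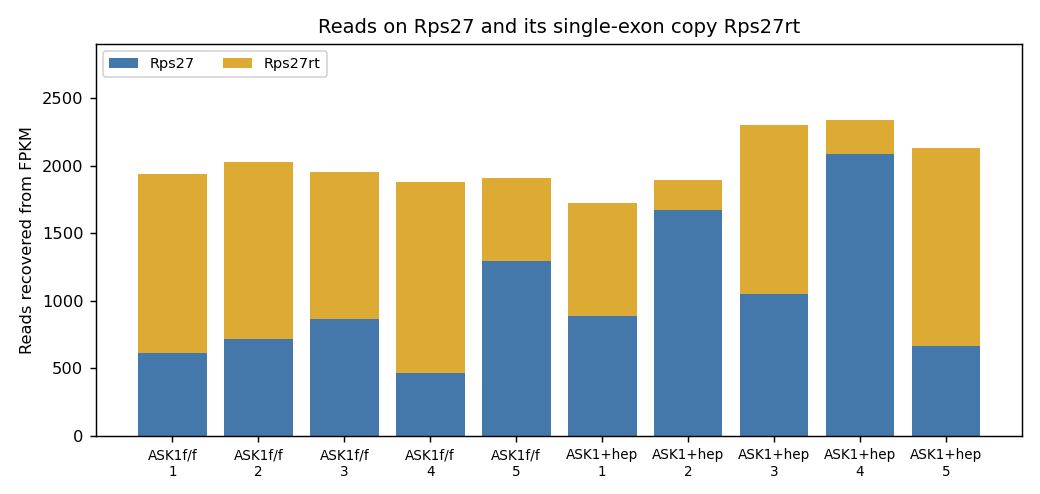
Reads recovered from the deposited values for Rps27 (blue) and Rps27rt (yellow), stacked (y axis), in each liver (x axis). The blue part runs from 465 to 2087 reads while the stacks reach 1722 to 2336 reads.

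Other members shared sequence with copies too. Of the 78, 76 had at least 1 gene elsewhere that shared a stretch of 75 bases, and for 13 members more than 20% of the combined reads lay on such genes. In 10 of these 13 the combined reads followed the family more closely than the member's own reads (smaller SD after removing the family's mean). A gene counted here if it shared 1 stretch, as Uimc1 did with Rpl29, holding 3430 of 5300 such reads. Some members had few reads of their own over all livers, such as Rps10 (307) and Rpl36al (188). Whether reads were divided between copies, or the SD fell because more reads were pooled, was not tested. Rpl7a (residual SD 0.48) measured 16.9 to 45.2 FPKM in control livers and 13.5 to 31.7 FPKM in ASK1+hep livers. Rpl21 (residual SD 0.43) measured 5.81 to 13.97 and 7.58 to 16.8 FPKM. For Rpl21, 77.5% of combined reads were on genes sharing its sequence, of which BC004004 held 12726 of 19241 reads, and its coefficient of variation was 36.1% alone and 19.3% combined. Rpl5, also among the 5 with the largest residual SD (0.37), measured 45.2 to 61.3 FPKM over all livers, a flat profile while the family rose and fell.

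Several members were nearly or wholly without reads. Rpl10l, a retrogene known from testis, was listed at 0 in all livers, and Rpl39l, also known from testis, had 2 reads in ASK1f/f replicate 5, 1 read in ASK1+hep replicate 3 and none elsewhere. Rpl3l, known from striated muscle, had 1 to 12 reads per liver, whereas its parent Rpl3 measured 50.5 to 76.5 FPKM. Rpl24 had 5 to 20 reads in a liver and Rps10 12 to 49, although both encode regular subunits of the ribosome. Each is overlapped by a longer annotated gene, Gm28037 over 47.0% of the exons of Rpl24 and RPS10-NUDT3 over 20.6% of those of Rps10, and both of these genes were listed at 0 in all livers. Rpl36al (0.398 to 1.602 FPKM) is overlapped over 24.5% of its exons by Gm49383, likewise at 0. Rps10-ps2, a processed copy of Rps10, had 405 to 870 reads per liver, and 95.7% of combined reads lay on the copies of Rps10. The part of overlaps and copies in these low values was not tested. Of the parents of other paralogs, Rpl39 measured 47.4 ± 5.02 and 58.6 ± 13.3 FPKM, Rpl10 241 ± 8.07 and 271 ± 58.5 FPKM, and Rps4x 129 ± 7.66 and 125 ± 16.5 FPKM in control and ASK1+hep livers (SD, n = 5 each; exact permutation p = 0.159, 0.325 and 0.548).

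Some ribosomal proteins have genes outside the naming rule. Fau, fused to a ubiquitin-like protein, had a log2 fold change of 0.32 ± 0.25 SE, limma p = 0.218, exact permutation p = 0.286. Rack1, a scaffold on the small subunit, had -0.066 ± 0.10 SE, limma p = 0.528, exact permutation p = 0.429. The paralogs Rpl22l1 and Rpl7l1 had -0.22 ± 0.15 and 0.10 ± 0.10 (SE; exact permutation p = 0.254 and 0.246).

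Of the other gene lists, mitochondrial ribosomal proteins (76 of 77 tested) had a median log2 fold change of 0.16. At an unadjusted p under 0.05, 5 of these genes were higher and 0 lower, beside 3.05% and 2.71% of all genes tested. Those of lowest p were Mrpl15 (log2 fold change 0.33 ± 0.11 SE, limma p = 0.0128, exact permutation p = 0.00794) and Mrps33 (log2 fold change 0.32 ± 0.12 SE, limma p = 0.0215, exact permutation p = 0.0238). Respiratory chain subunits (71 of 77 tested) had a median of 0.28 with 0 at that level, Atp5k coming closest (log2 fold change 0.49 ± 0.23 SE, limma p = 0.0538, exact permutation p = 0.0952) and Cox7c next (log2 fold change 0.47 ± 0.24 SE, limma p = 0.0739, exact permutation p = 0.103). Proteasome subunits (37 of 39 tested) had a median of 0.15 with 1 gene higher, Psmd6 (log2 fold change 0.19 ± 0.083 SE, limma p = 0.0434, exact permutation p = 0.00794), followed by Psmd4 (log2 fold change 0.39 ± 0.18 SE, limma p = 0.0511, exact permutation p = 0.0794). In ASK1+hep replicate 3 the mean deviation was 0.50 for mitochondrial ribosomal proteins, 0.76 for respiratory chain and 0.26 for proteasome subunits, beside 0.64 and 0.61 for the large and small cytosolic subunits.

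Lists of genes that build or regulate ribosomes had medians nearer to 0. The 17 other 5' TOP genes, which encode mostly translation factors, had a median of -0.014 with 0 at an unadjusted p under 0.05. Eef2, elongation factor 2, measured 457, 462, 433, 410.5 and 420.4 FPKM in control livers. In ASK1+hep livers it measured 408, 352, 302, 409.6 and 377 FPKM (log2 fold change -0.25 ± 0.13 SE, limma p = 0.0744, exact permutation p = 0.00794), so the groups did not overlap, as for 0.86% of all genes tested. Naca had a log2 fold change of 0.19 ± 0.11 SE, limma p = 0.124, exact permutation p = 0.103. The 48 ribosome assembly factors had a median of 0.015 with 0 at that level, the lowest p being those of Nop56 (log2 fold change 0.25 ± 0.12 SE, limma p = 0.0665, exact permutation p = 0.0635) and Tsr1 (log2 fold change -0.27 ± 0.15 SE, limma p = 0.0976, exact permutation p = 0.127). Of 14 RNA polymerase I genes (median 0.085), 1 was higher at that level, beside 3.05% of all genes tested. It was Taf1a (log2 fold change 0.22 ± 0.086 SE, limma p = 0.0257, exact permutation p = 0.00794), followed by Polr1d (log2 fold change 0.19 ± 0.13 SE, limma p = 0.181, exact permutation p = 0.198). The 19 genes of mTORC1, LARP1 and MYC had a median of -0.0034 with 0 at that level, Sesn2 (log2 fold change 0.32 ± 0.16 SE, limma p = 0.0737, exact permutation p = 0.0952) and Eif4ebp1 (log2 fold change 0.39 ± 0.22 SE, limma p = 0.105, exact permutation p = 0.151) coming first. Of 4 transcription factors that can bind ribosomal protein promoters (median 0.0097), Gabpa and Sp1 had -0.14 ± 0.15 and 0.072 ± 0.094 (SE; exact permutation p = 0.397 and 0.310).

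**Figure D5:**
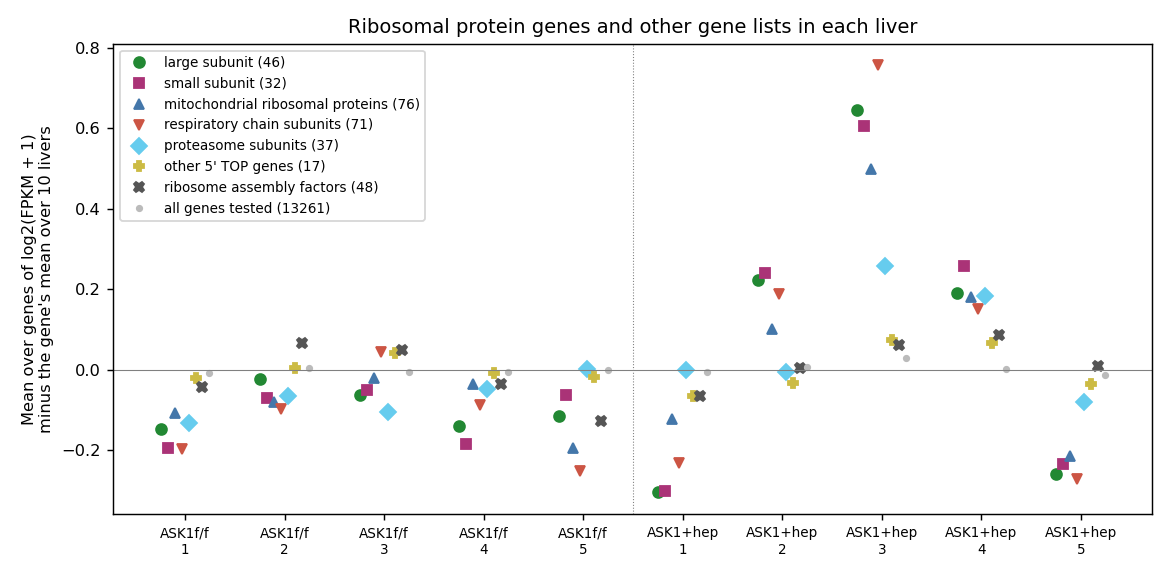
Mean deviation of each gene list, as log2(FPKM + 1) minus the gene's mean over 10 livers (y axis), by liver (x axis), with numbers of genes in brackets. Cytosolic and mitochondrial ribosomal proteins and respiratory chain subunits are highest in ASK1+hep replicate 3 (0.50 to 0.76), while other 5' TOP genes and assembly factors stay between -0.13 and 0.086 in all livers.

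Markers of liver cell types were checked in the same libraries. All 7 hepatocyte markers passed the filter and summed to 33259.7 to 44803 FPKM in control and 38999.6 to 48602 FPKM in ASK1+hep livers. Of these, Ttr had a log2 fold change of 0.52 ± 0.23 SE, limma p = 0.0469, exact permutation p = 0.0317, and Cps1 was 94.9 FPKM in ASK1+hep replicate 3, against 295 to 616 FPKM in the other livers (log2 fold change -0.72 ± 0.40 SE, limma p = 0.101, exact permutation p = 0.159). The 8 macrophage markers, 0 of 8 with a higher mean in ASK1+hep livers, summed to 129 to 199 FPKM in control and 80.9 to 199 FPKM in ASK1+hep livers, with Adgre1 at -0.54 ± 0.29 SE, limma p = 0.0939, exact permutation p = 0.183 and Cd5l at -0.41 ± 0.31 SE, limma p = 0.205, exact permutation p = 0.302. The 6 endothelial markers summed to 27.2 to 41.1 FPKM in control and 22.6 to 40.8 FPKM in ASK1+hep livers (exact permutation p = 0.214 for Oit3 and 0.238 for Stab2). For the 5 stellate cell markers the sums were 16.4 to 26.2 FPKM in control and 14.3 to 27.3 FPKM in ASK1+hep livers (exact permutation p = 0.246 for Dcn and 0.262 for Reln). For the 5 cholangiocyte markers they were 13.5 to 32.7 FPKM in control and 15.6 to 28.3 FPKM in ASK1+hep livers (exact permutation p = 0.206 for Krt7 and 0.468 for Spp1).

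Of the blood cell lists, the 4 erythroid genes summed to 326 to 474 FPKM in control livers and to 602, 523, 780.4, 1012 and 306 FPKM in ASK1+hep replicates 1 to 5. Hbb-bt had a log2 fold change of 0.64 ± 0.24 SE, limma p = 0.0215, exact permutation p = 0.0317 and Hba-a1 of 0.77 ± 0.36 SE, limma p = 0.0529, exact permutation p = 0.103. The erythroid sum was thus above the control range in replicate 1, where ribosomal protein genes were low, as well as in replicates 2, 3 and 4. B cell markers (4 of 5 tested) summed to 4.44 to 11.3 FPKM in control and 2.40 to 13.6 FPKM in ASK1+hep livers, with exact permutation p = 0.492 for Ighm and 0.635 for Cd79b. Of 5 T and NK cell markers 1 passed the filter, Trbc2 (exact permutation p = 0.563), and the list summed to 1.29 to 2.22 FPKM in control and 1.01 to 3.05 FPKM in ASK1+hep livers. Of 4 neutrophil markers 2 passed, S100a8 and S100a9 (exact permutation p = 0.357 and 0.817), and the sums were 1.62 to 15.8 FPKM in control and 2.20 to 8.11 FPKM in ASK1+hep livers. No marker of these lists was at 0 in all livers. The part of these cell types in the ribosomal protein values was not tested.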

How the data were processed

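Livers of 5 ASK1f/f and 5 ASK1+hep mice were grouped by their GEO labels. The authors sequenced poly-A RNA, aligned reads with Hisat2, counted them with FeatureCounts and deposited FPKM per gene, with deposited gene lengths. The submitters' processing notes name fastp, and strandedness, versions and genome build are not given in the sources used here. Of 54409 genes matched to GENCODE M21 (GRCm38), 98.3% had the same coordinates, as did 80 of the 82 members.

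FPKM times gene length gave whole multiples of 1 step per library (largest distance from a whole number 0.000187 reads), from which reads were recovered. A gene entered the test if 5 or more livers held 10 or more reads after scaling to the median library and its sum was 15 or more (13261 genes). The test was limma 3.58.1 in R 4.3.3 (lmFit, eBayes with trend) on log2(FPKM + 1), without covariates, with Benjamini-Hochberg adjustment over all genes tested. A fold change on this scale understates that of low genes. The method was tested on simulated data in which genes varied independently and planted changes were larger than those of the members. That test does not cover genes that rise and fall together, as the members do. The authors tested with DESeq2 on counts, which was not run here, although the recovered reads were used for limma-voom. Exact two-sided permutation tests (Python 3.11.15) used all 252 splits of the 10 livers, or all splits of the remaining livers where livers were left out. With all 10 livers an exact permutation p of 0.00794 is the lowest these tests can give. P-values set the difference between groups against the spread between these livers. Shared sequence was counted as stretches of 75 bases of the principal transcript found in transcripts of other genes. Promoter sequences are from RefSeq.

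Genes named are the 3 most abundant and the 3 of lowest p in each subunit, the 5 most variable after removing the family's mean, members that failed the filter, members with special roles and paralogs, the 2 of lowest p in each comparison list, and Map3k5; 1 gene that the rule names is not reported here. Others are said to be chosen after their values were seen or are the copies, overlapping genes and non-Rp-named ribosomal proteins that the text describes with them. Members and lists were chosen with earlier results of these data known. Alternatives were a pseudocount of 0.1, other filters, limma-voom with and without quality weights, scaling by all reads or to equal summed FPKM (TPM), gene length correction (spline with 5 df), the replicate number as a block, and leaving out each liver. Correction for gene length and GC together, and leaving out livers for summed FPKM and the subunit ratio, were chosen after seeing the data.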

Additional observations from a re-analysis of the deposited data

Results flagged for a closer look

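In 152 groups of 5 livers checked, 9 held a liver whose gap to the nearest other was more than 0.71 of the group's range, a level that chance alone passes in about 1 of 20 groups. Among ribosomal protein genes, Rpl9 measured 53.1 FPKM in ASK1+hep replicate 4, against 37.3 to 41.7 FPKM in the other ASK1+hep livers. Rpl39l measured 0.156 FPKM in ASK1f/f replicate 5 and 0.0873 FPKM in ASK1+hep replicate 3, which stand for 2 reads and 1 read where the other livers had none.

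The other 6 fell in ASK1f/f replicate 5. In that liver Map3k5 was 19.8 FPKM, the macrophage marker Adgre1 5.66 FPKM, the proteasome subunit gene Psmd4 45.5 FPKM and the mTORC1 regulator Sesn2 4.41 FPKM, each the highest of the 5 ASK1f/f livers. The stellate cell markers Dcn and Reln were lowest there, at 9.86 and 0.753 FPKM. The summed FPKM of ribosomal protein genes in the same liver was 8624, inside the ASK1f/f range of 8208 to 8929.9.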

How the results depend on the processing

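Of the members, 0 reached an adjusted p of 0.05 under any of the 22 alternatives, while 7 members and 765 of all genes had an unadjusted p under 0.05 with all livers. Without the low-value filter these were 4 members and 1222 genes, and with libraries scaled to equal summed FPKM 1332 genes. Leaving out 1 liver at a time gave 1 to 17 members and 553 to 1722 genes. Subunit medians then ran from 0.066 to 0.31 for the large and 0.054 to 0.31 for the small subunit. With libraries scaled to equal summed FPKM they were 0.020 and -0.0023. In every alternative they moved by less than 1 SD between livers (0.29 for the large and 0.26 for the small subunit). These SDs exceed the medians with all livers (0.22 and 0.20), so a full loss of the shift would also stay within 1 SD. The difference between the subunit medians ran from -0.000695 to 0.0381 when livers were left out and was -0.00876 with quality weights. Leaving out livers, chosen as an alternative for the sums after seeing the data, gave differences in the large to small ratio from -0.0477 to -0.0160, with an exact permutation p under 0.05 without ASK1+hep replicate 3 (-0.0477) and not without any of the other 9 livers. Over all genes, 1 adjusted call (Fgf21, named after its value was seen) was made by limma-voom with quality weights and 1, the same gene, without ASK1+hep replicate 5.

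Some fold changes turned sign, and no member had a call in any fit. Scaling to equal summed FPKM left 53 of 78 members with the same direction, and only named genes are listed here. With equal summed FPKM, Rplp1 was -0.143, Rplp0 -0.176, Rps2 -0.0837, Rps6 -0.124 and Rpl10 -0.0585 on the log2 scale. For Rplp1 and Rplp0, scaling by all reads gave -0.0168 and -0.0495, gene length correction -0.0801 and -0.0402, and gene length and GC correction -0.114 and -0.0365, with the same values under the replicate block. Quality weights gave Rps10 0.227. With livers left out, Rplp1 ran from -0.142 to 0.203, Rplp0 from -0.0533 to 0.0855, Rps2 from -0.0556 to 0.282, Rps3a1 from -0.0865 to 0.00132, Rpl7a from -0.296 to 0.0565 and Rps10 from -0.146 to 0.0503. The cause was not tested.

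Replicate numbers are shared between groups, but the labels do not say that a number marks a shared litter. In 4 of the 5 same-numbered pairs the animal numbers in the labels are consecutive. Deviations of same-numbered livers correlated by 0.0220 to 0.174, and 6 of 10 livers correlated best with their own number. With the replicate block 9 members, 9 higher and 0 lower, and 874 genes had an unadjusted p under 0.05; Rpl21, Rpl37a and Rps21 were added, Rpl9 had 0.0607 as limma p (exact permutation without the block 0.0476), and no adjusted call changed. Depth limits Rps10, Rpl24, Rpl36al and the tissue-restricted paralogs, which rest on few reads.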

Other observations

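Pseudogene rows named after ribosomal protein genes numbered 298, of which 156 had reads, in all 6586 to 12923 reads per liver. Rps4l, which the deposited table lists as a transcribed processed pseudogene and which therefore is no member, measured 39.3, 7.95, 24.7, 22.4 and 12.5 FPKM in ASK1f/f replicates 1 to 5. In ASK1+hep replicates 1 to 5 it measured 10.4, 18.5, 45.8, 31.1 and 9.16 FPKM. The groups overlapped (log2 fold change 0.041 ± 0.48 SE, limma p = 0.932, exact permutation p = 0.937). Its parent Rps4x measured 109 to 143 FPKM over the 10 livers.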
